A study of Mus musculus with 8 samples.

Results

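Nuclear pore proteins and karyopherins move protein and RNA cargo between nucleus and cytoplasm. Their transcripts are described here in cultured mouse satellite cells (muscle stem cells) given the compound sal003 or its vehicle DMSO. The genes were picked by a rule on symbols, set with earlier results of these data known, so their counts are a description of the group. It takes the numbered Nup, Kpna, Kpnb, Ipo and Xpo genes together with Ran, Rcc1, Ranbp1, Ranbp2, Tpr and Xpot. The rule found 45 of the 39017 genes in the count table, and all 45 passed the filter on low counts. They were sorted by role into 22 pore proteins, 20 transport receptors and 3 genes of the Ran cycle.

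The cells came from adult mice of genotype Pax3GFP/+, which carry a green fluorescent reporter at an allele of the muscle transcription factor Pax3, and the labels give diaphragm and abdominal muscle as the source. Cultures began with 7500 cells in a 35 mm plate and lasted 4 days, with DMSO in 4 samples and 10 µM sal003 in the other 4. Sal003 keeps the translation factor eIF2α phosphorylated by blocking the phosphatases that act on it. All 8 samples share the genotype, the source and the time in culture, and the labels do not say whether a replicate is an animal or a culture of its own. A p-value here therefore speaks for the spread among these samples, which may be technical.

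The nuclear pore is a ring of proteins, called nucleoporins, set in the nuclear envelope. A scaffold made of the Y complex and the inner ring holds nucleoporins with disordered, phenylalanine-glycine rich stretches that fill the channel. Filaments reach from the scaffold into the cytoplasm, and a basket reaches into the nucleus. Importins carry cargo inward and exportins carry it outward, and both find their direction from the GTPase Ran, which is loaded with GTP by Rcc1 on chromatin and made to hydrolyse it in the cytoplasm with the help of Ranbp1 and Ranbp2. During mitosis the pore comes apart, and Ran with its importins also guides spindle assembly. In muscle, Nup210 is known as a pore protein that myoblasts gain when they differentiate.

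Promoter sequences were at hand for 36 of the 45 genes, as 41 windows from RefSeq (build GRCm38.p6) that run from 250 bases before the start of a transcript to 50 bases after it. The genes with no window were Kpna1, Kpna3, Kpna6, Nup210l, Nup35, Nup43, Nup85, Xpo4 and Xpo7. Both strands were searched for 4 motifs linked to cell cycle genes or to housekeeping genes: E2F sites (TTTCCCGC, TTTCGCGC, TTTGCCGC or TTTGGCGC), the cell cycle homology region, or CHR (TTTGAA or TTCGAA), the CCAAT box, and the NRF1 site (GCGCA followed at once by its reverse complement, TGCGC). No match of a motif overlapped a match of another. The stretches below are shown because they belong to the gene with the largest difference (Ranbp1), to the main exportin and the main importin beta (Xpo1, Kpnb1), to the importin alpha that rose (Kpna2), to a pore scaffold gene and the GTPase with an NRF1 match (Nup107, Ran), and to the gene that fell most clearly (Nup93). Each stretch was placed where matches lie, so the set does not show how common matches are. Among the genes that rose, Nup160, Nup133, Nup188, Nup205, Nup54, Nup153 and Ranbp2 had a window with no match. Each is written 5′ to 3′ on the strand of its gene, with motif matches in capitals.
Ranbp1: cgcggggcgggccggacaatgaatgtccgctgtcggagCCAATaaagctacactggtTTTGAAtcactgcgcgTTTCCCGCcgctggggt
Kpna2: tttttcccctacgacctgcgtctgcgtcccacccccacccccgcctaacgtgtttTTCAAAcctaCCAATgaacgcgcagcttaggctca
Xpo1: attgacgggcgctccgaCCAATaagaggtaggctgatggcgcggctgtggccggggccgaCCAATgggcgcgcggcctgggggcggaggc
Kpnb1: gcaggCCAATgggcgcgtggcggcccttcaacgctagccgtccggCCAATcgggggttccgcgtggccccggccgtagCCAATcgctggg
Nup107: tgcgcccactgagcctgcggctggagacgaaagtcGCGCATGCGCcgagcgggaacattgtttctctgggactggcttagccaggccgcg
Ran: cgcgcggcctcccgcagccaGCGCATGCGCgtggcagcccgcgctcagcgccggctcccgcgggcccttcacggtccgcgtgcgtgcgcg
Nup93: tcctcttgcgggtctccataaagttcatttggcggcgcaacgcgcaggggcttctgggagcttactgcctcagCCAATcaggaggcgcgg
In GRCm38.p6 the stretches lie at chr16:18248715-18248804 (Ranbp1, minus strand), chr11:106999526-106999615 (Kpna2, minus), chr11:23255841-23255930 (Xpo1, plus), chr11:97188003-97188092 (Kpnb1, minus), chr10:117792716-117792805 (Nup107, minus), chr5:129019931-129020020 (Ran, plus) and chr8:94214474-94214563 (Nup93, plus). The Ranbp1 stretch held a CCAAT box at -72, a CHR at -53 and an E2F site at -37 from the start, within 90 bases. In Kpna2 a CHR on the opposite strand (TTCAAA) began at -35 and a CCAAT box at -25. The Kpnb1 stretch held 3 CCAAT boxes and the Xpo1 stretch held 2, and Nup93 carried a CCAAT box at -17.

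An E2F match was present in 3 of the 41 windows (7.32%; Ranbp1, Ipo7 and Nup210), against 2.26% of all 32851 windows in the table and 3.87% of the 12438 windows of tested genes. A CHR was found in 26.8% of the members' windows, against 19.2% of all windows and 13.4% of those of tested genes. For the CCAAT box the shares were 53.7%, 37.4% and 37.5%. The NRF1 site stood in 12.2% of the members' windows (Nup107, Nup50, Nup62, Ran and Xpo5), against 0.971% of all windows and 2.05% of those of tested genes. Within the members, the windows of genes that rose in sal003 held an E2F match in 2 of 23, a CHR in 6, a CCAAT box in 11 and an NRF1 site in 2. Those of genes that did not pass the test held them in 1, 4, 9 and 3 of 15. The windows of genes that fell held them in 0, 1, 2 and 0 of 3, and the one with a CHR was that of Ipo4. A match is a run of letters and not a measured binding site, and windows of the same gene share sequence.

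Levels are given in CPM, counts per 1000000 counts, scaled by TMM. Libraries held between 32753929 and 40234107 counts. If each count is an independent event, a count of 0 allows up to 3, or 0.0916 CPM before TMM scaling in the shallowest library. Of counts from 1 to 20, a mean of 80.5% were even with DMSO and 80.2% with sal003, so this bound may be too low. DMSO replicate 2 stood apart: it had a count in 14437 genes, where the other libraries had one in 16561 to 18076, and its Spearman correlation with another DMSO library reached 0.949 at most, where the other replicate pairs of a condition gave 0.977 or more. Satellite cell and myoblast genes were present in every library, with Pax7 at 72.1 ± 6.74 CPM with DMSO and 97.2 ± 2.54 CPM with sal003 and Myod1 at 896 ± 85.8 CPM with DMSO and 892 ± 52.3 CPM with sal003 (SD, n = 4). Among the markers of endothelial, immune, fibro-adipogenic and perivascular cells found in the table, Cspg4 was the only one with a mean above 10 CPM (197 ± 32.5 CPM with DMSO and 149 ± 14.0 CPM with sal003), and with it the perivascular list summed to 183.6 to 248 CPM with DMSO and 142 to 171 CPM with sal003. Their part in the results was not tested. The endothelial, immune and fibro-adipogenic lists each summed to between 0.831 and 6.04 CPM per library. Ptprc, Cd3e, Emcn, Dcn and Lum had no counts in any library.

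Most estimates for the genes under the naming rule were higher in sal003. Of the 45 genes, 24 rose, where 10.6% of all 15816 tested genes did, and 2 fell, where 12.2% of all tested genes did (edgeR, adjusted p below 0.05). The other 19 did not pass the test. The largest increases were those of Ranbp1, Nup160, Rcc1 and Xpo1, each close to a doubling, and the genes that fell were Nup93 and Ipo4. The median log2 fold change was 0.37 over the members and -0.00338 over all tested genes, and 40 of the 45 estimates were positive. All 4 sal003 libraries lay above all 4 DMSO libraries for 23 members, where 13.1% of tested genes did so, and all 4 lay below for 2, where 13.7% did.

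The background was higher among well counted genes. Among genes of at least 10 CPM in 4 libraries, 17.4% rose and 20.4% fell, and of the 41 members among them 24 rose and 2 fell. Without DMSO replicate 2, 27 members rose and 1 fell, where 13.4% and 13.6% of tested genes did. With total counts as the only scaling, the median of all tested genes moved to 0.17 and 67.8% of all calls were toward higher values, against 46.5% with TMM. In that scaling 2878 of all 15816 tested genes rose and 1365 fell. Of the members 31 rose and 1 fell, and their median of 0.55 stood 0.38 above the median of all genes.

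As a share of the library, the 45 genes together took 0.580% ± 0.0269 of counts with DMSO and 0.873% ± 0.0178 with sal003 (SD, n = 4). The DMSO libraries ran from 0.556% to 0.609% and the sal003 libraries from 0.855% to 0.892%, so the conditions did not overlap. The ratio of the means was 1.51. It was 1.42 when the 20 most abundant genes were left out of the totals. These shares are not scaled by TMM, whose mean factor was 0.941 with DMSO and 1.06 with sal003. On TMM-scaled levels the ratio would be smaller.

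**Figure D1:**
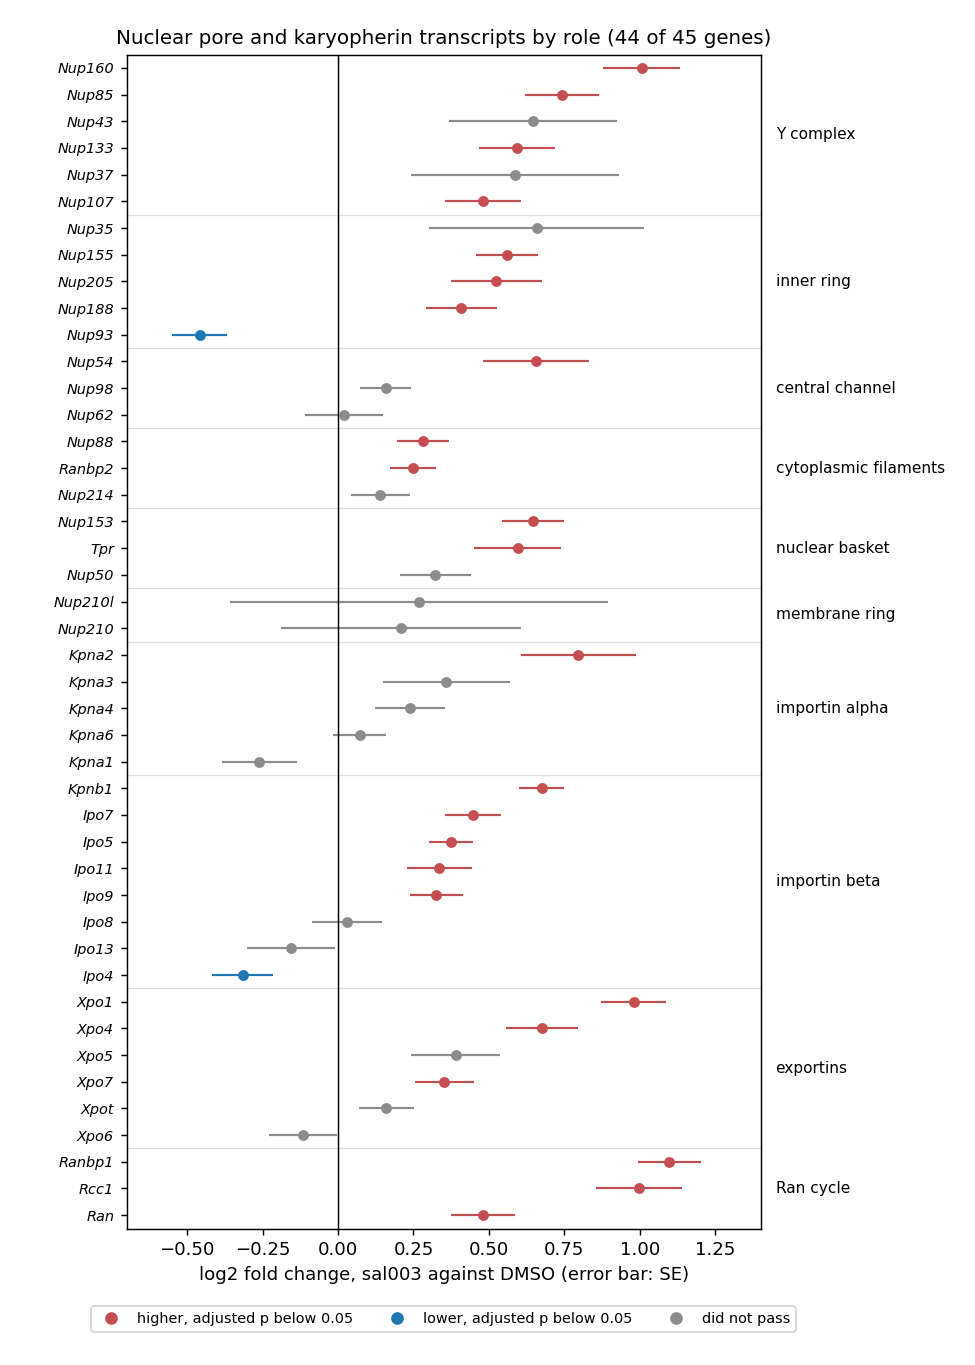
Log2 fold change of sal003 against DMSO for 44 of the 45 genes, sorted by role on the vertical axis; points are edgeR estimates from 4 libraries per condition and bars their SE. Most points lie to the right of 0, Nup93 and Ipo4 are the 2 that fell, and Kpna7 is left out because its SE of 1.59 would stretch the axis.

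**Figure D2:**
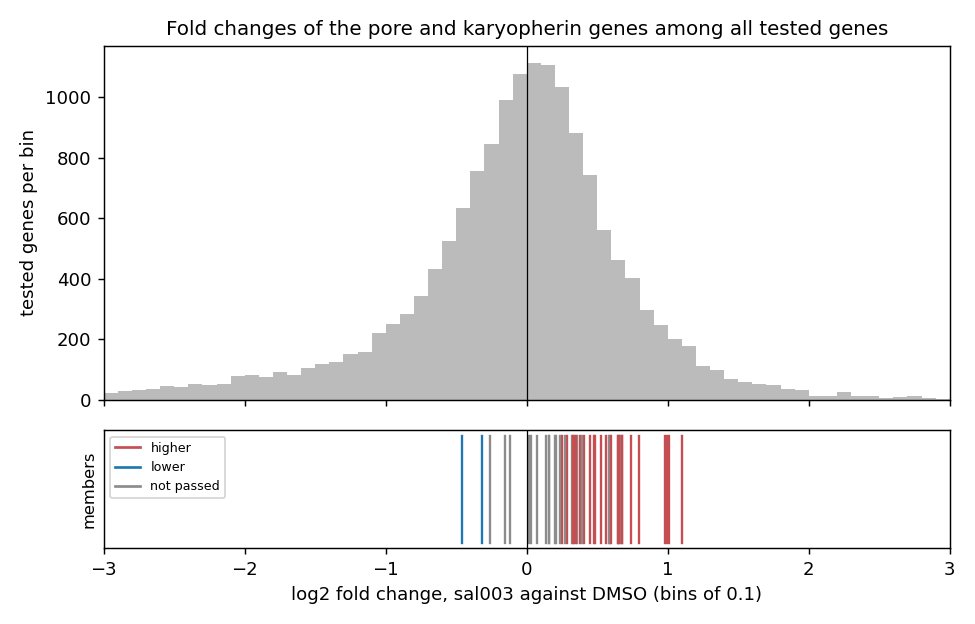
Upper panel, number of tested genes in each bin of 0.1 in log2 fold change; lower panel, a line for each of the 45 members. The members lie between -0.46 and 1.10, mostly right of 0, and 190 tested genes beyond -3 or 3 are not drawn.

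The state of the cultures differed as well, on lists to be read beside the 10.6% of all tested genes that rose and 12.2% that fell. The 6 proliferation genes on the list of cell state genes all rose, among them Mki67, a marker of cycling cells (882 ± 181 CPM with DMSO and 1866 ± 86.8 CPM with sal003), the topoisomerase Top2a (1.16 ± 0.10 on the log2 scale) and the replication clamp Pcna (1.02 ± 0.14; SE, adjusted p by edgeR = 5.00e-05). Of the 7 myogenic genes 4 fell, 1 rose and 2 did not pass: Myog, the factor of terminal differentiation, fell by 1.60 on the log2 scale and Cdkn1a, an inhibitor of the cell cycle, fell by 1.85. Pax7, the satellite cell factor, rose by 0.43 ± 0.10 (adjusted p by edgeR = 0.00539), and the values of Myf5 (0.38 ± 0.19) and Myod1 (-0.01 ± 0.08) did not pass (adjusted p = 0.190 and 0.975). The part of these shifts in the values of the pore and transport genes was not tested. In bulk RNA, fewer cells of a kind and less RNA per cell cannot be told apart.

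The 3 genes of the Ran cycle all rose, where 10.6% of all tested genes did. Their summed share was 0.0337% ± 0.00321 of counts with DMSO and 0.0632% ± 0.00219 with sal003. Per-library values are given from here on in the order of replicates 1 to 4. Ranbp1, which helps strip GTP-bound Ran from receptors in the cytoplasm, stood at 94.6, 85.0, 91.4 and 107 CPM with DMSO and at 227, 179, 197 and 206 CPM with sal003 (ENSMUSG00000005732, chromosome 16, 18239784 to 18248732, minus strand of mm10). Every sal003 library was at least 1.5 times as high as any DMSO library. Its log2 fold change of 1.10 ± 0.10 (SE; adjusted p by edgeR = 1.09e-06) was the largest of the 45. In the annotation 20.1% of its exon bases are shared with another gene, Trmt2a on the opposite strand or Gm49776, and how such reads were counted is not given in the sources at hand.

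Rcc1 encodes the exchange factor that loads Ran with GTP. Its levels were 41.0, 30.2, 40.8 and 50.1 CPM with DMSO and 75.6, 78.9, 87.1 and 81.9 CPM with sal003, with no overlap, and the log2 fold change was 0.997 ± 0.14 (SE; adjusted p by edgeR = 7.74e-05; ENSMUSG00000028896, chromosome 4, 132331919 to 132353605, minus strand). The Rcc1 estimate was 0.89 without DMSO replicate 2, its lowest library. The GTPase gene itself, Ran, moved less. It was measured at 192, 275, 208 and 218 CPM with DMSO and at 317, 326, 289 and 315 CPM with sal003 (ENSMUSG00000029430, chromosome 5, 129020069 to 129024323, plus strand). DMSO replicate 2 was the highest of the DMSO libraries and still lay below every sal003 library. The log2 fold change of Ran was 0.48 ± 0.11 (SE; adjusted p by edgeR = 0.00318). None of the 3 calls was lost when any 1 library was left out.

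**Figure D3:**
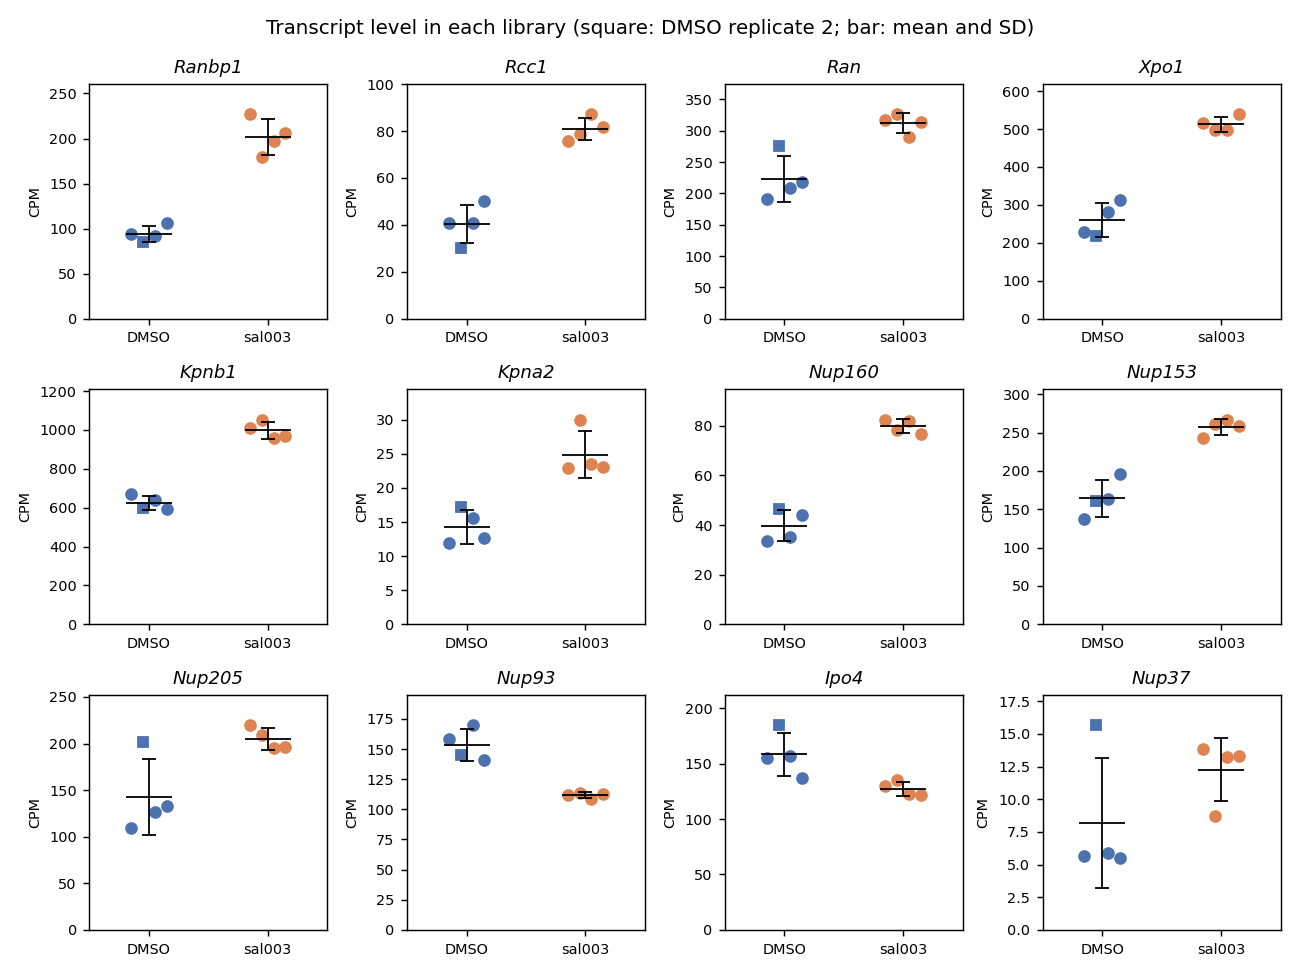
CPM in each library for 12 of the genes, with DMSO in blue and sal003 in orange, the square marking DMSO replicate 2 and the bars the mean and SD of 4 libraries; axes start at 0. Ranbp1, Rcc1, Ran, Xpo1, Kpnb1, Kpna2, Nup160 and Nup153 separate upward, Nup93 and Ipo4 separate downward, and Nup205 and Nup37 overlap through DMSO replicate 2.

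Among the exportins, 3 of 6 rose and the other 3 did not pass the test, where 10.6% of all tested genes rose. Xpo1, also called CRM1, is the main exporter of proteins with a leucine-rich export signal and of several kinds of RNA. It stood at 229, 217, 281 and 312 CPM with DMSO and at 517, 496, 498 and 539 CPM with sal003 (ENSMUSG00000020290, chromosome 11, 23256041 to 23298249, plus strand). The lowest sal003 library exceeded the highest DMSO library by more than the range of either condition. With a log2 fold change of 0.98 ± 0.11 (SE; adjusted p by edgeR = 5.71e-06), its mean level was 1.97 times that in DMSO.

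Xpo4, which exports eIF5A and Smad3 and imports some transcription factors, had 56.0, 69.2, 59.6 and 57.7 CPM with DMSO and 107, 88.9, 83.8 and 107 CPM with sal003 (log2 fold change 0.68 ± 0.12, SE; adjusted p by edgeR = 5.20e-04). Its conditions were apart by a clear margin. Xpo7, an exporter of many soluble proteins, was at 95.2, 81.8, 105 and 98.2 CPM with DMSO and 121, 123, 121 and 119.6 CPM with sal003, a smaller step of 0.35 ± 0.10 (adjusted p by edgeR = 0.0157). Xpo5, the exporter of precursor microRNAs, had 73.9, 124, 77.3 and 82.4 CPM with DMSO and 129.9, 119.5, 102 and 117 CPM with sal003. Here DMSO replicate 2 reached into the sal003 range, and the estimate of 0.39 ± 0.15 missed the threshold (adjusted p by edgeR = 0.0756). It passed without that library, at 0.60 (adjusted p = 7.70e-05). For Xpot, the exporter of transfer RNA, the log2 fold change was 0.16 ± 0.09 (adjusted p = 0.264). That of Xpo6, the exporter of actin with profilin, was -0.12 ± 0.11 (adjusted p = 0.560).

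Of the 8 importin beta genes, 5 rose, 1 fell and 2 did not pass, where 10.6% of all tested genes rose and 12.2% fell. Kpnb1 encodes importin beta 1, which carries importin alpha with its cargo through the pore and also takes up cargo directly. It had the most counts of the 45 genes, with 671, 599.6, 638 and 594 CPM with DMSO and 1012, 1052, 958 and 971 CPM with sal003 (ENSMUSG00000001440, chromosome 11, 97159714 to 97187881, minus strand). All 4 sal003 libraries lay far above the DMSO range, and the log2 fold change was 0.67 ± 0.08 (SE; adjusted p by edgeR = 6.91e-06). In the annotation 7.07% of its exon bases are shared with Gm11583 on the opposite strand.

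Ipo5 and Ipo7 bring ribosomal proteins and histones into the nucleus. Levels of Ipo5 were 377, 356, 368 and 396 CPM with DMSO and 481, 502, 486 and 473 CPM with sal003, a step of 0.37 ± 0.07 on the log2 scale (adjusted p by edgeR = 0.00141). Those of Ipo7 were 372, 412, 434 and 506 CPM with DMSO and 568, 586, 573 and 623 CPM with sal003 (0.45 ± 0.09, adjusted p = 0.00210 with edgeR). Neither gene overlapped between conditions, although the DMSO libraries of Ipo7 were more spread. Ipo9, a carrier of histones and actin, rose by less, at 0.33 ± 0.09 (adjusted p by edgeR = 0.0132), and lost the call without sal003 replicate 2 (adjusted p = 0.0569). Ipo11 had an estimate of 0.34 ± 0.11 (adjusted p by edgeR = 0.0343). A carrier of ubiquitin-conjugating enzymes, it lost its call without DMSO replicate 1 (0.0538) or 4 (0.0765), and likewise without sal003 replicate 1 (0.0535), 2 (0.123), 3 (0.0705) or 4 (0.0686).

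Ipo4, another importer of histones and ribosomal proteins, went the other way. It was measured at 156, 185, 157 and 137 CPM with DMSO and at 129.8, 136, 123 and 122 CPM with sal003 (ENSMUSG00000002319, chromosome 14, 55625400 to 55635957, minus strand). The conditions did not overlap, but the highest sal003 and the lowest DMSO library were close. The log2 fold change was -0.31 ± 0.10 (SE; adjusted p by edgeR = 0.0336). This call depended on the libraries: the adjusted p was 0.0634 without DMSO replicate 1, 0.0647 without 2 and 0.0726 without 3. Without sal003 replicate 1, 2, 3 or 4 it was 0.0798, 0.0514, 0.107 or 0.106. With total counts as the only scaling, which moves the median of all genes by 0.17, the estimate was -0.14 (adjusted p = 0.396). In the annotation 55.3% of the exon bases of Ipo4 are shared with Gm49378 on the same strand, so its level is uncertain. Ipo13 (-0.16 ± 0.15, adjusted p = 0.537) and Ipo8 (0.03 ± 0.12, adjusted p = 0.912) did not pass with edgeR. Ipo13 works in both directions of transport, and Ipo8 is known to carry Smad and Argonaute proteins.

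Importin alpha proteins read the classical nuclear localisation signal and hand cargo to importin beta 1. Of the 6 paralogs in the table, only Kpna2 passed the test, where 10.6% of all tested genes rose and 12.2% fell. Kpna2, the paralog known to follow the cell cycle, was at 11.9, 17.1, 15.6 and 12.7 CPM with DMSO and at 23.0, 30.0, 23.5 and 23.0 CPM with sal003 (ENSMUSG00000018362, chromosome 11, 106988629 to 106999541, minus strand). The conditions did not overlap, and sal003 replicate 2 stood above the other 3. The log2 fold change was 0.80 ± 0.19 (SE; adjusted p by edgeR = 0.00617). Kpna3 (0.36 ± 0.21), Kpna4 (0.24 ± 0.12), Kpna6 (0.07 ± 0.09) and Kpna1 (-0.26 ± 0.12) had adjusted p by edgeR of 0.290, 0.171, 0.664 and 0.163. Kpna4 passed without DMSO replicate 4, at 0.36 (adjusted p = 0.0272). The Kpna3 estimate shrank to 0.17 without DMSO replicate 2, its lowest library. Kpna7, an oocyte and early embryo paralog, had between 0 and 47 counts per library. If counts are independent events, its 0 in DMSO replicate 2 allows up to 0.0851 CPM before TMM scaling, a bound that may be too low.

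To compare the paralogs with each other, counts were divided by exon length. This is the merged length of all annotated exons of a gene, which can differ from the transcripts expressed, so the order depends on it. Undivided, mean levels in DMSO were 148 CPM for Kpna1, 106 for Kpna6 and 101 for Kpna3, while in sal003 Kpna3 was highest at 130 CPM. On this scale Kpna3 held the largest mean share of importin alpha transcripts, at 34.2%, 19.9%, 36.2% and 39.4% in the DMSO libraries and 36.5%, 38.9%, 38.0% and 34.6% in the sal003 libraries. DMSO replicate 2 was the low value, at 19.9%, and in that library Kpna1 led at 32.5%. The mean share of Kpna2 went from 7.02% ± 1.56 in DMSO to 10.6% ± 1.28 in sal003 (SD, n = 4). That of Kpna1 went from 24.5% ± 5.44 in DMSO to 17.7% ± 2.08 in sal003, a difference of -6.84 percentage points that was -4.20 when DMSO replicate 2 was left out. The share of Kpna2 was higher in all 4 sal003 than in all 4 DMSO libraries (exact permutation test, two-sided, p = 0.0286, the smallest that 70 splits allow). Adjusted over the 6 paralogs it was 0.171, as for Kpna1, and a share that alone is fully separated cannot go lower, so this test could not have passed for Kpna2 alone.

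**Figure D4:**
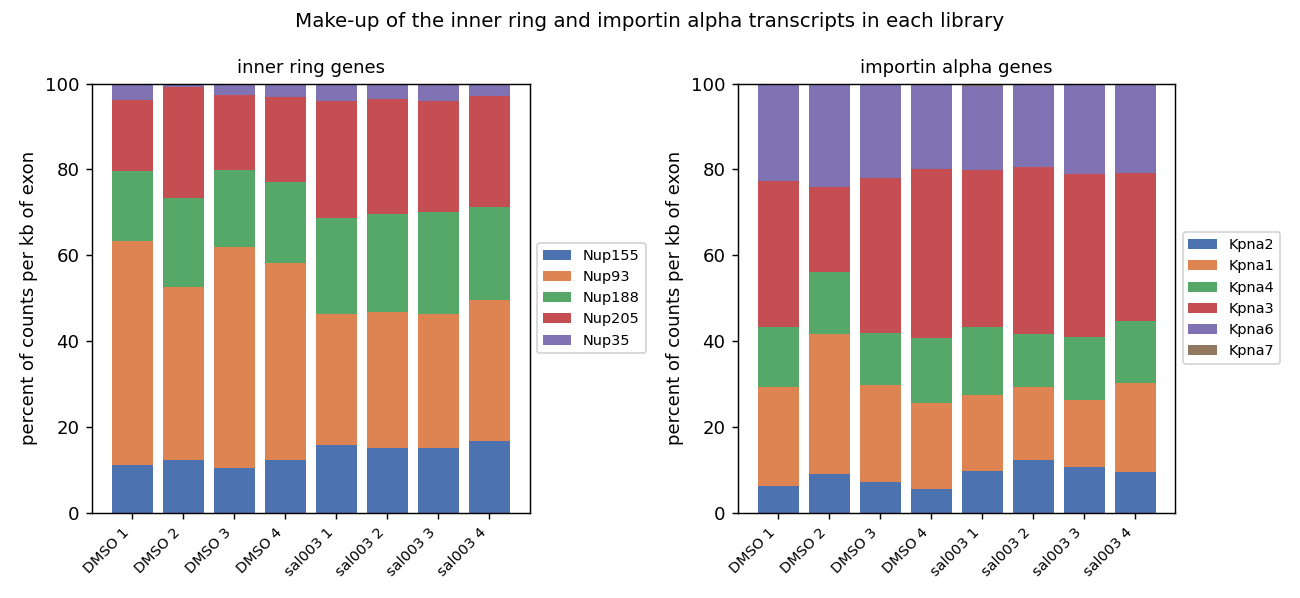
Make-up of the inner ring transcripts (left) and the importin alpha transcripts (right) in each of the 8 libraries, as percent of counts per kb of exon. Nup93 takes 40.4% to 52.2% of the inner ring in DMSO and 30.5% to 32.8% in sal003, and Kpna2 takes 5.51% to 9.12% of importin alpha in DMSO and 9.61% to 12.4% in sal003.

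Within the pore, 12 of 22 genes rose, 1 fell and 9 did not pass, where 10.6% of all tested genes rose and 12.2% fell. The Y complex is the outer scaffold that is also found at kinetochores in mitosis. Of its 6 genes under the naming rule, 4 rose and the other 2 did not pass. The rule leaves out Sec13 and Seh1l of the same complex, and neither passed. Sec13 was at -0.26 ± 0.10 (adjusted p by edgeR = 0.0704), with all sal003 libraries below all DMSO libraries. Seh1l was at 0.16 ± 0.13 (adjusted p by edgeR = 0.479). Nup160 stood at 33.7, 46.3, 35.0 and 44.0 CPM with DMSO and at 82.4, 78.4, 82.0 and 76.6 CPM with sal003 (ENSMUSG00000051329, chromosome 2, 90677215 to 90736328, plus strand). Its mean in sal003 was 2.01 times that in DMSO, the largest ratio among the pore genes that passed, with a log2 fold change of 1.01 ± 0.13 (SE; adjusted p by edgeR = 2.52e-05). Nup85 was at 53.5, 69.4, 51.6 and 59.9 CPM with DMSO and 92.2, 111, 101 and 88.2 CPM with sal003 (0.74 ± 0.12, adjusted p by edgeR = 2.85e-04). Nup133 was at 43.0, 59.6, 44.1 and 47.9 CPM with DMSO and 74.9, 78.7, 67.1 and 72.7 CPM with sal003 (0.59 ± 0.13, adjusted p by edgeR = 0.00266). For both genes DMSO replicate 2 was the highest DMSO library, and no DMSO library reached the sal003 range.

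Nup107, the best known member of the complex, rose by 0.48 ± 0.13 on the log2 scale (adjusted p by edgeR = 0.0110). Its DMSO replicate 2 read 65.3 CPM where the other DMSO libraries read 92.5 to 98.1. The Nup107 estimate shrank to 0.37 without that library (adjusted p by edgeR = 0.00444). Nup43 and Nup37, the other Y complex genes under the rule, had similar estimates from far fewer counts. Nup43 was at 8.70 ± 3.40 CPM with DMSO and 13.6 ± 2.35 CPM with sal003 (0.65 ± 0.28, adjusted p by edgeR = 0.120), and passed without DMSO replicate 4 (adjusted p = 0.0175). Nup37 was at 8.17 ± 4.99 CPM with DMSO and 12.3 ± 2.39 CPM with sal003 (0.59 ± 0.34, adjusted p = 0.276 with edgeR). Its DMSO replicate 2 read 15.7 CPM where the other DMSO libraries read 5.47 to 5.88, and without it the log2 fold change was 1.12 (adjusted p = 0.00217).

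The inner ring was split. Nup155, a scaffold protein that touches the membrane, was at 94.1, 123, 97.5 and 107 CPM with DMSO and 163, 151, 147 and 162 CPM with sal003 (ENSMUSG00000022142, chromosome 15, 8109273 to 8161247, plus strand). It rose by 0.56 ± 0.10 on the log2 scale (SE; adjusted p by edgeR = 7.30e-04) with no overlap. The large paired scaffolds Nup188 and Nup205 also rose but overlapped between conditions. Nup188 read 72.9, 109, 86.0 and 85.0 CPM with DMSO and 119.7, 119.6, 121 and 109 CPM with sal003 (0.41 ± 0.12, adjusted p by edgeR = 0.0188), and Nup205 was at 142 ± 40.6 CPM with DMSO and 205 ± 11.5 CPM with sal003 (0.53 ± 0.15, adjusted p by edgeR = 0.0213). In both, DMSO replicate 2 reached the sal003 range, and without it the estimates were 0.54 (adjusted p = 1.56e-04) and 0.75 (adjusted p = 8.29e-07). The Nup188 call was lost without DMSO replicate 1 (0.0549) or sal003 replicate 1, 2 or 3 (0.0550, 0.0559 and 0.0569). The Nup205 call was lost without DMSO replicate 1, 3 or 4 (0.0527, 0.0662 and 0.0668) or sal003 replicate 1 or 2 (0.0685 and 0.0624). Nup35 had few counts and did not pass (0.66 ± 0.36, adjusted p = 0.230).

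Nup93 links Nup188 and Nup205 to the channel proteins, and it fell. Its levels were 158, 145, 169.7 and 141 CPM with DMSO and 112, 113, 108 and 113 CPM with sal003 (ENSMUSG00000032939, chromosome 8, 94214564 to 94317227, plus strand). The sal003 libraries were tightly grouped and all below the lowest DMSO library. The log2 fold change was -0.46 ± 0.09 (SE; adjusted p by edgeR = 0.00160), and the call held in each of the 8 fits without 1 library, with adjusted p of at most 0.00961. Divided by exon length, Nup93 made up 52.2%, 40.4%, 51.5% and 45.8% of the inner ring transcripts in the DMSO libraries. In the sal003 libraries it made up 30.5%, 31.7%, 31.2% and 32.8%. Nup205 went from 19.9% ± 4.13 in DMSO to 26.5% ± 0.728 in sal003 (SD, n = 4). These inner ring shares were looked at after the values were seen and were not tested.

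Of the channel genes under the rule, Nup54 rose. It was at 15.5, 23.7, 18.7 and 25.6 CPM with DMSO and 33.4, 33.3, 33.8 and 31.0 CPM with sal003, with no overlap (0.66 ± 0.18, SE; adjusted p by edgeR = 0.0122). Nup62, the core protein of the channel, read 106 ± 23.0 CPM with DMSO and 107 ± 6.92 CPM with sal003, a step of 0.02 ± 0.13 (adjusted p by edgeR = 0.953). DMSO replicate 2 was the high value there, at 140.4 CPM against 92.4 to 95.8 CPM in the other DMSO libraries. Nup98, whose transcript also encodes the Y complex protein Nup96, had 128, 135, 134 and 142 CPM with DMSO and 154, 151, 152 and 146 CPM with sal003. All its sal003 libraries were above all DMSO libraries, but the step of 0.16 ± 0.08 did not pass (adjusted p by edgeR = 0.219). Nupl1, a pore protein gene that the rule leaves out, overlapped between conditions and did not pass (0.18 ± 0.13, adjusted p by edgeR = 0.421). In the annotation 55.4% of its exon bases are shared with other genes.

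The cytoplasmic filaments showed small steps. Nup88, which holds Nup214 at the pore, was at 151, 183, 168 and 178 CPM with DMSO and 203, 209, 208 and 207 CPM with sal003 (0.28 ± 0.09, SE; adjusted p by edgeR = 0.0256). Ranbp2, the giant filament protein that binds Ran and acts as a SUMO ligase, was at 445, 490.2, 516 and 525 CPM with DMSO and 589.9, 573, 586 and 597 CPM with sal003 (0.25 ± 0.08, adjusted p by edgeR = 0.0289). Neither overlapped, yet both calls were near the threshold. The Nup88 call was lost without DMSO replicate 1 (0.0638) or 3 (0.0545), and also without sal003 replicate 1, 2, 3 or 4 (0.0570, 0.0714, 0.0684 and 0.0597). That of Ranbp2 was lost without DMSO replicate 1 (0.0675), and also without sal003 replicate 1, 2, 3 or 4 (0.0787, 0.0600, 0.0736 and 0.0745). Nup214 did not pass (0.14 ± 0.10, adjusted p = 0.374).

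In the nuclear basket, Nup153 and Tpr rose. Nup153 anchors the basket and stood at 137, 160.3, 164 and 196 CPM with DMSO and 242, 261, 267 and 258 CPM with sal003 (ENSMUSG00000021374, chromosome 13, 46679905 to 46727940, minus strand). Its log2 fold change was 0.65 ± 0.10 (SE; adjusted p by edgeR = 2.10e-04). Tpr, the long coiled coil that forms the basket's struts and binds checkpoint proteins, was at 371, 268, 461 and 479.8 CPM with DMSO and 600.3, 593, 623 and 570.1 CPM with sal003 (0.60 ± 0.15, adjusted p by edgeR = 0.00910). DMSO replicate 2 was the lowest library of Tpr, and all 4 sal003 libraries lay above the DMSO range. The Tpr estimate shrank to 0.46 without that library (adjusted p by edgeR = 1.51e-04). Nup50, a cofactor of import, had 139, 161, 106 and 149.6 CPM with DMSO and 184, 179.6, 159 and 171 CPM with sal003. Its step of 0.32 ± 0.12 did not pass with edgeR (adjusted p = 0.0625), and did without DMSO replicate 2 (adjusted p = 0.00452). The membrane protein Nup210 was low in both conditions, with 90 to 248 counts per library and 4.42 ± 1.90 CPM with DMSO and 5.11 ± 0.644 CPM with sal003 (0.21 ± 0.40, adjusted p = 0.799). Nup210l, its relative in germ cells, was lower still, at 2.62 ± 1.82 CPM with DMSO and 3.16 ± 0.865 CPM with sal003 (0.27 ± 0.63, adjusted p = 0.841).

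**Figure D5:**
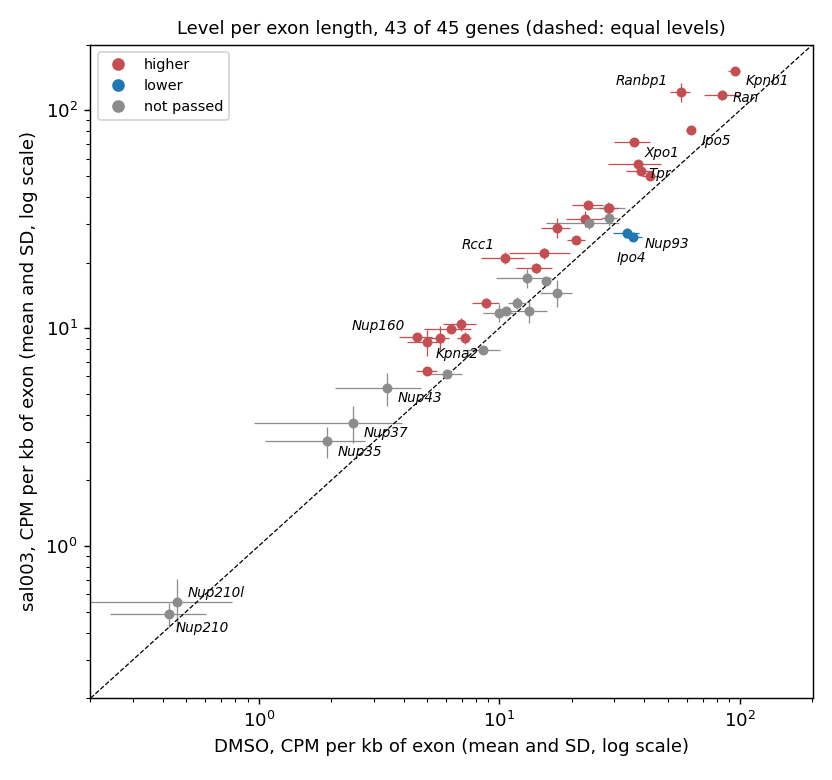
Mean level per kb of exon in DMSO (horizontal) and sal003 (vertical), both on log scales, for 43 of the 45 genes, with bars for the SD of 4 libraries; Nup62 has no exon length in the annotation used and Kpna7 is near 0. Kpnb1, Ran and Ranbp1 lie at the top right, Nup210 and Nup210l at the bottom left, and most points above the dashed line of equal levels.

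Levels per kb of exon spanned a wide range. Their order rests on the merged length of all annotated exons, which can differ from the transcripts expressed. Nup62 has no exon length in the annotation used and could not be ranked. In DMSO the order was led by Kpnb1 at 94.9 ± 5.44 CPM per kb and Ran at 84.4 ± 13.7, whose spreads touch, followed by Ipo5 at 62.4 ± 2.82 and Ranbp1 at 56.7 ± 5.47, whose spreads also touch. In sal003 Kpnb1 again led, at 151 ± 6.47 CPM per kb, and Ranbp1 at 121 ± 12.0 and Ran at 118 ± 5.93 lay within their spreads of each other. Among pore genes, Ranbp2 (42.1 ± 3.06), Tpr (37.6 ± 9.24) and Nup93 (36.0 ± 3.11) had the highest levels per kb in DMSO, and Nup210 (0.422 ± 0.181) and Nup210l (0.459 ± 0.319) the lowest. In sal003 Tpr stood at 56.8 ± 2.09 CPM per kb and Nup93 at 26.2 ± 0.558. The 44 genes with a position in the annotation lie on 15 chromosomes, and 15 of them share exon bases with another annotated gene, over 10% of them in Ipo4, Ranbp1, Nup188 (12.4%) and Nup133 (10.4%). The levels of these genes, and of any gene with near-identical copies elsewhere in the genome, are uncertain to the extent that reads were split or dropped in counting.

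Other genes of nuclear transport, outside the naming rule, were taken from a list. Of the 37 that the table holds, 11 rose and 1 fell, where 10.6% and 12.2% of tested genes did, and their median log2 fold change was 0.22. Pore proteins were among the 11: Ahctf1, also called Elys, which starts pore assembly on chromatin, stood at 153 ± 7.76 CPM with DMSO and 245 ± 3.22 CPM with sal003 (0.68 ± 0.08, adjusted p by edgeR = 1.21e-05). The membrane protein Ndc1 rose by 0.97 ± 0.17 on the log2 scale (adjusted p = 6.03e-04), the membrane protein Pom121 by 0.54 ± 0.10 and Aaas, also called aladin, by 0.69 ± 0.11. Of the karyopherins, Cse1l, which returns importin alpha to the cytoplasm, stood at 166 ± 34.5 CPM with DMSO and 297 ± 14.1 CPM with sal003 (0.84 ± 0.13, adjusted p by edgeR = 1.42e-04), and Tnpo1, the importer of many RNA-binding proteins, rose by 0.57 ± 0.10. Rcc2, a relative of Rcc1 that works at centromeres, rose by 0.63 ± 0.09, and Rangap1, which activates GTP hydrolysis by Ran, by 0.40 ± 0.08 (adjusted p by edgeR = 0.00227). The gene that fell was Ranbp10, at -0.60 ± 0.14 (adjusted p by edgeR = 0.00371), named after its value was seen. In the list of mRNA and ribosome export, 2 of 13 rose, Alyref (0.54 ± 0.12) and Thoc1 (0.49 ± 0.14), both named after their values were seen. The Thoc1 call was lost without sal003 replicate 1 (adjusted p = 0.0612), and the main mRNA export receptor Nxf1 was at 127 ± 24.1 CPM with DMSO and 125 ± 14.5 CPM with sal003. Tnpo3, the importer of SR splicing factors and the last of the 11, rose by 0.31 ± 0.10 and lost its call without DMSO replicate 1 or 3 or any of the sal003 libraries (adjusted p up to 0.116).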

How the data were processed

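The authors deposited 1 table of raw counts per gene, summed over exons, for 8 libraries, with Ensembl identifiers and symbols. Trimming with Trimmomatic 0.32, alignment with STAR 2.3.0e to mm10 and counting with featureCounts 1.4.4 are named, per the submitters' processing notes; how strand and multiply aligned reads were handled is not given in the sources at hand. Per the labels' protocols, RNA was depleted of ribosomal and mitochondrial RNA and made into stranded SMARTer libraries. The dose is 10 µM in the design text and in the sample attributes, and 10 mM in the treatment protocol. Even numbers made up 80.5% ± 3.41 (DMSO) and 80.2% ± 0.865 (sal003; SD, n = 4) of all counts between 1 and 20.

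Counts of all genes were fitted with edgeR 4.0.16 in R 4.3.3 (filterByExpr with minimum count 10 and minimum total 15, TMM, robust quasi-likelihood test, condition as the only term), two-sided, with Benjamini-Hochberg adjustment over all 15816 tested genes and a threshold of 0.05. The SE is the log2 fold change divided by the root of the F statistic. Each pair of replicates differed beyond counting noise (chi-square of at least 24.3 per degree of freedom). Positions, exon lengths and shared exon bases come from GENCODE M21 (mm10), which held 96.4% of the table's identifiers. Counting error is the only error that depth covers.

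Members and lists were chosen with earlier results of these data known. Per-library values were set to be given for Ran, Kpna2, Kpnb1 and Xpo1, for up to 3 called members of each role in order of p and for called members against the main direction, and up to 8 other transport genes were to be named by p. Alternatives were RLE, upper-quartile and total-count scaling, no filter, 10 CPM in 4 libraries, DESeq2 1.42.0, limma-voom (limma 3.58.1) with quality weights, a replicate block, halved counts and leaving out each library. The inner ring shares were added later. A further marker list is not reported here.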

Additional observations from a re-analysis of the deposited data

Results flagged for a closer look

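In 120 sets of 4 libraries (60 genes, the 45 members and other transport and cell state genes, in 2 conditions), 11 had a library set apart from the other 3, where chance gives about 1 in 20. In DMSO, replicate 2 was the library set apart for Nup37 (15.7 CPM, others 5.47 to 5.88), Nup62 (140.4 CPM, others 92.4 to 95.8), Ipo8 (73.9 CPM, others 102 to 105) and Xpo5 (124 CPM, others 73.9 to 82.4). Replicate 4 was so for Nup43 (13.8 CPM, others 6.39 to 7.47) and Kpna4 (108 CPM, others 80.9 to 84.8). In sal003, replicate 2 stood apart for Nup37 (8.71 CPM, others 13.2 to 13.8) and Kpna2 (30.0 CPM, others 23.0 to 23.5). Replicate 4 did for Nup188 (109 CPM, others 119.6 to 121), Nup54 (31.0 CPM, others 33.3 to 33.8) and Kpna6 (116 CPM, others 109 to 109.5).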

How the results depend on the processing

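The count of members that rose was 24 and ran from 24 to 31 over the other scalings, filters, tests and halved counts, and from 18 to 27 without 1 library. The same 24 genes were called with RLE or upper-quartile scaling, with the 10 CPM filter and with halved counts. Members that fell numbered 2, but 1 with total counts as the only scaling and 1 to 2 without 1 library; the gene lost was Ipo4 each time. Other transport genes that fell numbered 1, and 2 with the 10 CPM filter, with DESeq2 and with limma-voom. The members' median log2 fold change of 0.37 was 0.55 with total counts only, 0.42 with limma-voom, 0.42 with the replicate block and 0.36 to 0.45 without 1 library. Over all genes 1671 rose, and 2878 did with total counts as the only scaling. The ratio of the members' share of counts, 1.51, was 1.42 without the 20 most abundant genes. No estimate of a called member changed sign in any alternative run.

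Same-numbered libraries of the 2 conditions had deviations that correlated by -0.00531, 0.0187, 0.0354 and 0.00833 for replicates 1 to 4. DMSO replicate 1 correlated best with sal003 replicate 3 (0.0748). Correlations this weak cannot decide whether same-numbered libraries share an animal or a culture. With the replicate block 24 members rose and 2 fell; Ipo11 (adjusted p = 0.0610) and Ranbp2 (0.0537) were lost and Nup50 and Xpo5 gained. Kpna7, Nup210, Nup210l and Nup35 did not reach 10 CPM in 4 libraries; the cause of their wide SE was not tested.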
